A study of Mus musculus with 6 samples.

Results

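Osr1 and Osr2 are the mouse odd-skipped related genes, 2 of the 21938 genes measured here. They were taken by symbol. The study sequenced RNA of the soft palate, the muscular rear end of the palate, taken from E14.0 mouse embryos, in 6 libraries. The 3 controls carried b-cateninfl/fl, floxed alleles of β-catenin without Cre (the strain and genotype fields call them wild type), and the 3 mutants carried Osr2-Cre;b-cateninfl/fl, in which a Cre recombinase driven by Osr2 is used to delete β-catenin. The floxed alleles are therefore shared by both groups, and only the mutants have Osr2-Cre. The labels do not say whether Cre was placed in the Osr2 gene itself, nor whether a library holds 1 embryo or several, so each p-value speaks for the spread of these libraries, which may be technical. The levels below are CPM, the reads of a gene scaled to a common library total, and a log2 change is mutant minus control on log2(CPM + 1).

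Odd-skipped related factors are zinc finger proteins that bind DNA, named after a Drosophila segmentation gene. Osr2 is made in the mesenchyme of the growing palatal shelves and, in mice that lack it, the shelves grow and lift poorly and the palate stays cleft. Osr1 is made in intermediate mesoderm, where it is needed for the kidney, and in connective tissue around muscle, and it overlaps with Osr2 in the palate and in developing joints.

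The genes lie on different chromosomes. Osr1 (ENSMUSG00000048387.8) spans chromosome 12, 9570116 to 9581500 of GRCm38, and Osr2 (ENSMUSG00000022330.5) chromosome 15, 35296098 to 35303305, both on the plus strand. In GENCODE the longest coding sequence of Osr1 holds 266 codons, and Osr2 has coding transcripts of 312 and 276 codons. Over a global alignment of the 2 longest coding sequences, 69.1% of the aligned bases were identical. The stretch around the longest run they share is printed from the GENCODE transcripts, 150 coding bases each, because it shows how alike the paralogues are where reads could be confused; capitals mark bases that differ, and in both genes it overlaps 3 matches to the C2H2 zinc finger pattern.
Osr1: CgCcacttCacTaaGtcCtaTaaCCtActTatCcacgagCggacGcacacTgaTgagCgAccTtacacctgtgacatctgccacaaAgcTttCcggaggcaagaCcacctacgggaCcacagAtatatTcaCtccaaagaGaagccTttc
Osr2: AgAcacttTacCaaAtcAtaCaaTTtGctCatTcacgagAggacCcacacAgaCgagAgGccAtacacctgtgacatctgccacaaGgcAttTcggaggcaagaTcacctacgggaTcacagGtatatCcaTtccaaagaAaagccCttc
The 2 stretches differ at 29 of 150 bases. They cross the junction of exons 2 and 3 of the Osr1 transcript and of exons 1 and 2 of the Osr2 transcript. The longest run of identical bases, 23, is also the longest between any annotated transcripts of the genes, so a read longer than that holds at least a base that tells them apart. The sources used here do not give the read length. A non-coding gene, 1700022H16Rik, overlaps the annotated start of Osr1 on the opposite strand and was not analysed here. Nor do they say whether counting used strand, so reads from that overlap could be counted under Osr1.

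Osr2 was lower in every mutant library than in any control. It measured 34.5, 56.2 and 49.9 CPM in control replicates 1, 2 and 3, and 13.0, 19.4 and 15.9 CPM in mutant replicates 5, 6 and 7. These values rest on about 431 to 641 reads in the controls and 159 to 255 in the mutants. The groups did not overlap, and the lowest control lay well above the highest mutant. Control libraries averaged 46.9 ± 11.2 CPM and mutant libraries 16.1 ± 3.22 CPM (SD, n = 3 each), and Osr2 fell by 1.47 ± 0.20 (SE) on the log2 scale (limma, adjusted p = 0.0285 over all 21938 genes). It stood at rank 38 of 21938 by p and at rank 14 by size of the fall. In the same fit 0.283% of genes were called lower, and 10.8% of genes were lower in the mutant with no overlap between groups. In an exact permutation test, two-sided, p was 0.1, the smallest that 3 against 3 allows.

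The size of the fall was steadier than the call. The mutant level was 0.36 times the control level, with a 95% interval of 0.262 to 0.493. This interval is not adjusted for the number of genes and lies below 0.5, the ratio of a 2-fold fall. Leaving out single libraries put the log2 change between -1.68 and -1.33 and the adjusted p of limma between 0.0384 and 0.13. The call was kept without control replicate 2 (log2 change -1.33, adjusted p = 0.0384). It was lost without control replicate 1 (adjusted p = 0.0959) or 3 (0.0925), and without mutant replicate 5 (0.0691), 6 (0.0839) or 7 (0.13). Of the intervals without single libraries, those without control replicate 1 and without mutant replicate 6 stayed below 0.5, while the others reached up to 0.558. With all 6 libraries the upper bound also passed 0.5 under other settings. It was 0.517 with no trend in the prior variance and 0.506 with sex from Xist as a term. The libraries are bulk tissue, in which fewer cells that make a transcript and less of it per cell cannot be told apart. Nor can an effect of Osr2-Cre itself and an effect of β-catenin loss be told apart, since no group has Cre without the floxed alleles. Whether the Cre construct itself altered the Osr2 gene, and with it the level of Osr2, was not tested.

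**Figure D1:**
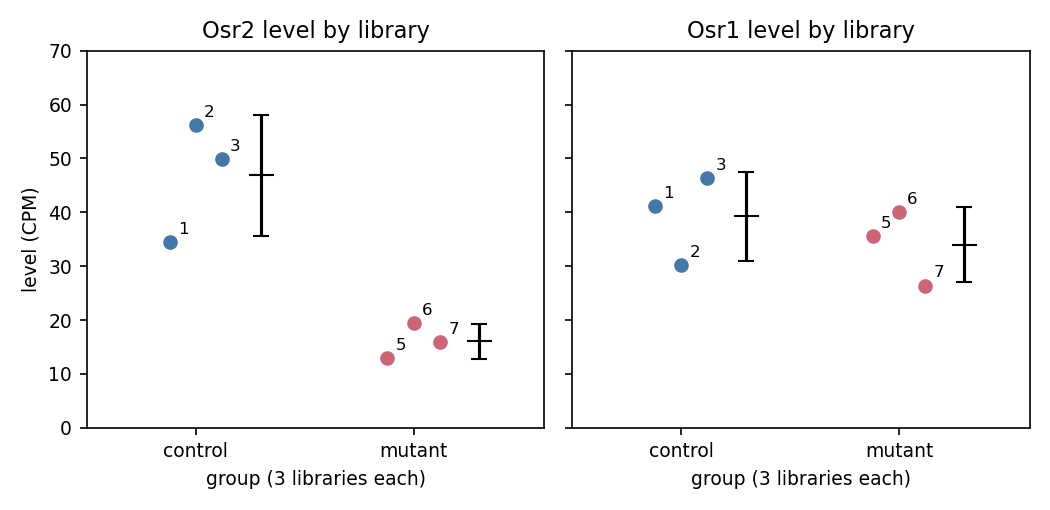
Levels of Osr2 (left) and Osr1 (right) in CPM by group; points are libraries with their replicate number, the bars mean ± SD of 3 libraries. Osr2 lies at 34.5 to 56.2 CPM in controls and 13.0 to 19.4 CPM in mutants, while the Osr1 groups overlap.

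Osr1, the paralogue on another chromosome, did not pass the test. It measured 41.2, 30.2 and 46.3 CPM in control replicates 1, 2 and 3, and 35.5, 40.1 and 26.4 CPM in mutant replicates 5, 6 and 7. The groups overlapped over most of their range, the lowest library being a mutant and the highest a control. The mean was 39.3 ± 8.22 CPM in control and 34.0 ± 6.97 CPM in mutant (SD, n = 3 each), a log2 change of -0.20 ± 0.19 (limma, adjusted p = 0.575), and the exact permutation p was 0.5. The 95% interval of the fold, 0.644 to 1.17, holds both a moderate fall and a small rise, and it does not reach the interval of Osr2. In the table, 55.5% of genes had a smaller p. Without 1 library at a time the change stayed between -0.37 (without control replicate 2) and -0.03 (without mutant replicate 7), and none of these fits called it.

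**Figure D2:**
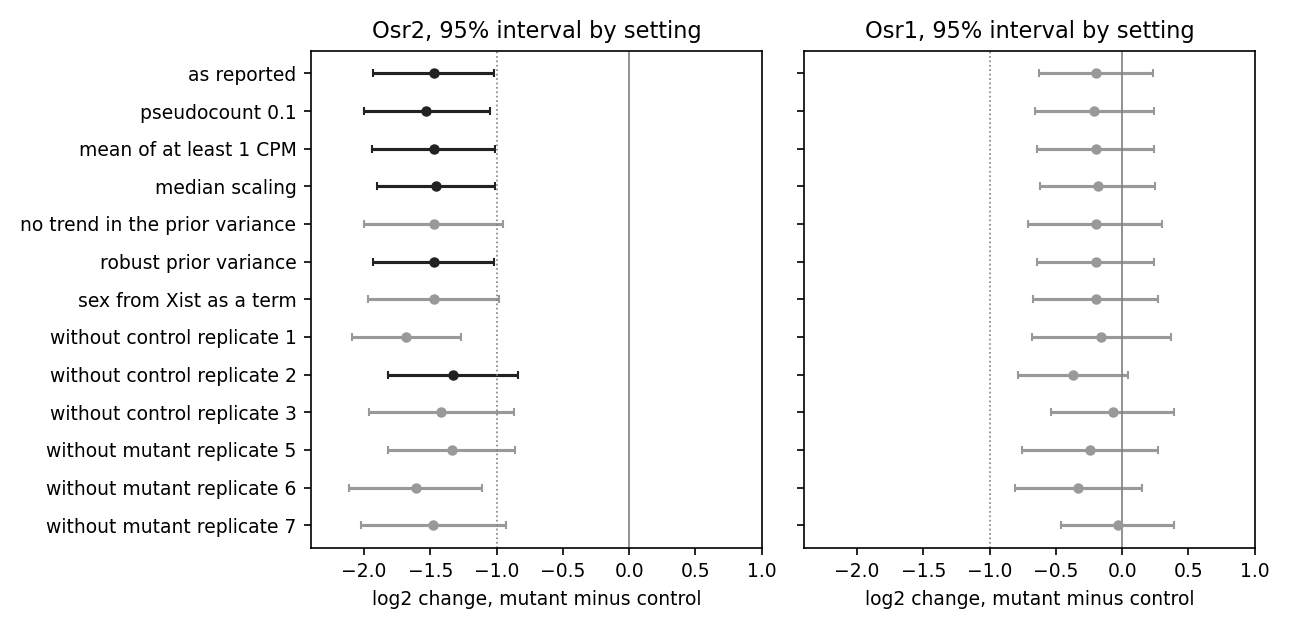
Log2 change of Osr2 (left) and Osr1 (right), mutant minus control, with its 95% interval as reported and under each alternative; black marks an adjusted p below 0.05, and the dotted line a change of -1. Osr2 stays between -1.68 and -1.33, with the call lost in 7 of 12 alternatives, and Osr1 stays near 0.

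Set against each other in the same library, the pair had a lower ratio of Osr2 to Osr1 in the mutants. This ratio contains the fall of Osr2 given above and is not separate evidence. The ratio of Osr2 to Osr1 CPM was 0.837, 1.86 and 1.08 in control replicates 1, 2 and 3, and 0.365, 0.484 and 0.603 in mutant replicates 5, 6 and 7. Each control lay above each mutant. The mean log2 ratio went from 0.25 ± 0.59 to -1.08 ± 0.36 (SD, n = 3 each), a difference of -1.33 with an exact two-sided permutation p of 0.1, again the smallest this design allows. The difference was -1 without control replicate 2, whose Osr1 was the lowest of the controls and whose Osr2 was the highest. Divided by the length of the longest coding transcripts (2012 and 1724 bases), Osr1 stood at 15 to 23 CPM per kb in controls and 13.1 to 19.9 in mutants, and Osr2 at 20 to 32.6 and 7.51 to 11.2. By these lengths Osr2 was therefore about level with or above Osr1 in the controls and below it in each mutant. The order in the controls depends on the lengths taken, and those used in counting are not known. With all annotated exons merged, Osr2 is the longer gene (3623 bases, and 2066 for Osr1). Those lengths would place Osr2 lower against Osr1 than given here. With the shorter coding transcript of Osr2, 1324 bases, its values were 26 to 42.4 CPM per kb in controls and 9.79 to 14.6 in mutants. Among all genes of a library, Osr2 lay at the 73.0 to 82.2 percentile of CPM in controls and the 53.9 to 62.2 percentile in mutants, and Osr1 between the 68.4 and 78.8 percentile in all 6.

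**Figure D3:**
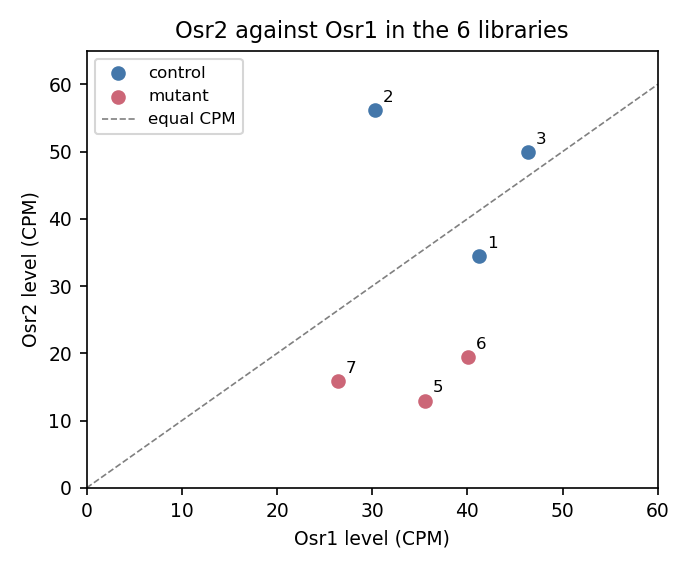
Osr2 level against Osr1 level, both in CPM, in each library, numbered by replicate; the dashed line marks equal CPM. The mutants lie below the line at Osr1 levels like those of the controls, with ratios of 0.365 to 0.603.

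The deleted gene, Ctnnb1, which encodes β-catenin, stood at 698.5, 784.5 and 671.5 CPM in control libraries and at 584.6, 633.4 and 581.5 CPM in mutant libraries (log2 change -0.26 ± 0.10, limma adjusted p = 0.183). Its groups did not overlap, but it did not pass. Of 9 measured readouts of canonical Wnt signalling, Ctnnb1 among them, 0 passed over all genes in limma, and 4 were lower and 0 higher at an unadjusted p below 0.05, where 8.07% of all genes were lower and 13.4% higher. The 3 beside Ctnnb1 were the feedback inhibitors Nkd1 (35.9 and 22.7 CPM, control and mutant means), Axin2 (53.9 and 37.1 CPM) and Nkd2 (23.3 and 15.7 CPM). The log2 changes of these 4 ran from -0.64 to -0.26, beside -1.47 for Osr2, a difference that was not tested. The other readouts went the other way, with log2 changes from 0.02 to 0.31, and each overlapped between groups. The median log2 change of the list was 0.02, against 0.04 over all genes.

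Genes tied to Osr2 in mouse genetics of the palate and tooth came next, 11 genes fixed as a list. None passed over all genes in limma. At an unadjusted p below 0.05, 4 were lower (8.07% of all genes) and 1 was higher (13.4%). With no overlap between groups, 3 were lower (10.8% of all genes) and 1 was higher (17.1%), and the median log2 change was -0.22, against 0.04 over all genes. The direction differed within the list.

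Shh, the Hedgehog ligand of the oral epithelium, had the smallest p of the list. It measured 13.7, 20.3 and 21.4 CPM in control replicates 1, 2 and 3 and 8.21, 9.43 and 5.70 CPM in mutant replicates 5, 6 and 7. Its log2 change was -1.15 ± 0.22 (adjusted p = 0.0613), and the groups did not overlap. Bmp4, a ligand that drives tooth buds and shelf growth and is opposed by Osr2 in the tooth field, measured 18.7, 24.8 and 16.8 CPM in controls and 14.3, 15.3 and 14.1 CPM in mutants (-0.42 ± 0.15, adjusted p = 0.173). Its groups were close but did not overlap. The same held for Tgfb3, a ligand of the shelf edge that is needed for fusion, at 110.2 ± 5.07 and 87.4 ± 12.8 CPM (adjusted p = 0.15). Sfrp2, a secreted Wnt antagonist that Osr2 and Msx1 act on in opposite ways in tooth mesenchyme, measured 831, 694 and 523 CPM in controls and 533, 348 and 348 CPM in mutants (-0.74 ± 0.21, adjusted p = 0.107). Here mutant replicate 5 lay just above control replicate 3.

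The class 3 semaphorins, secreted guidance proteins some of whose genes are known to be more active in palates that lack Osr2, had higher means in the mutant. Sema3e measured 22.2, 23.6 and 16.5 CPM in controls and 30.1, 29.0 and 42.3 CPM in mutants (0.67 ± 0.18, adjusted p = 0.103), with no overlap. Sema3a measured 169 ± 39.6 and 207 ± 27.6 CPM (adjusted p = 0.322) and Sema3d 129 ± 20.5 and 144 ± 21.0 CPM (adjusted p = 0.542), and both overlapped. Pax9, a factor upstream of Osr2 in the palate, measured 131 ± 13.9 and 128 ± 27.3 CPM (log2 change -0.05 ± 0.16, adjusted p = 0.894). Msx1, the antagonist of Osr2 in tooth patterning, ranged from 6.69 to 23.9 CPM in controls and from 5.43 to 22.0 CPM in mutants. Fgf10, a mesenchymal growth factor for the epithelium (11.4 and 8.02 CPM, adjusted p = 0.292), and Dkk2, a Wnt antagonist (56.1 and 48.9 CPM, adjusted p = 0.638), overlapped as well.

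**Figure D4:**
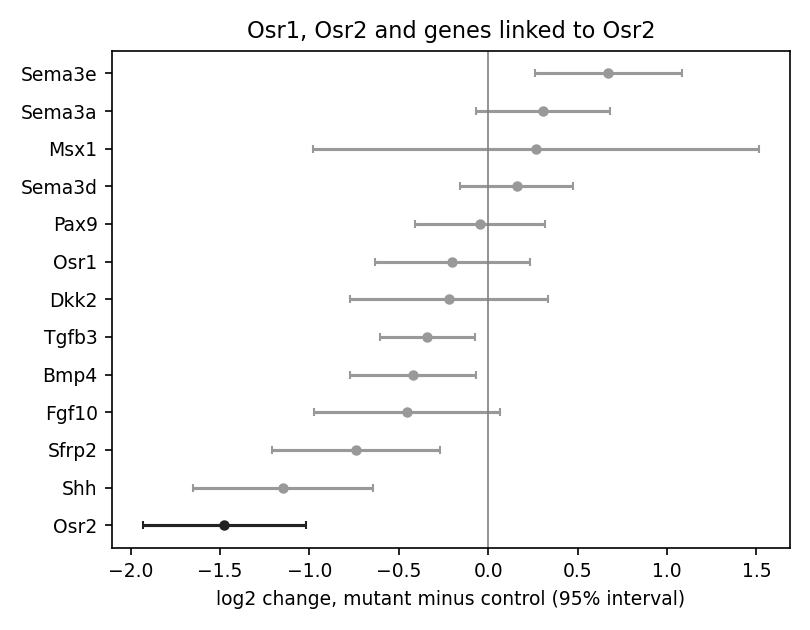
Log2 change, mutant minus control, with its 95% interval (not adjusted for the number of genes), of Osr2, Osr1 and the 11 genes tied to Osr2; black marks an adjusted p below 0.05. Osr2 is the only black point, Shh lies next to it at -1.15 and Sema3e farthest to the right at 0.67.

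Tissues in which Osr1 and Osr2 act together or through which Osr1 is known were examined as lists. Of 7 measured joint interzone genes, 0 passed in limma and 0 had an unadjusted p below 0.05 (median log2 change -0.15). Gdf5, the ligand that marks joints, stood at 0.499 to 2.18 CPM in controls and 0.456 to 1.14 CPM in mutants. These levels are low but lie above that of 3 reads, 0.199 to 0.299 CPM. Wnt4 measured 39.4 and 49.2 CPM, Prg4, which encodes lubricin, 5.50 and 3.21 CPM, and Trps1, a GATA-type repressor, 156 and 168 CPM (control and mutant means). Each overlapped between groups.

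Of 10 cartilage genes, a programme that Osr1 is known to hold back in the tongue, 0 passed over all genes in limma and 2 were higher at an unadjusted p below 0.05, where 13.4% of all genes were, with a median log2 change of 0.45 against 0.04 over all genes. These were the cofactors of Sox9: Sox5 at 23.5, 22.8 and 17.3 CPM in controls and 31.4, 33.4 and 56.8 CPM in mutants (0.87 ± 0.22, adjusted p = 0.0926), and Sox6 at 80.2 ± 11.3 and 118 ± 26.9 CPM (adjusted p = 0.146). Sox5 did not overlap between groups and Sox6 did. The matrix genes Acan (21.5 ± 17.5 and 33.5 ± 11.7 CPM) and Hapln1 (21.7 ± 14.9 and 32.8 ± 8.75 CPM) varied about as much between controls as between groups, control replicate 1 being the high one.

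In the connective tissue around muscle, where Osr1 marks fibroblasts, 13 genes were measured. None passed over all genes in limma. At an unadjusted p below 0.05, 5 were lower (8.07% of all genes) and 0 higher (13.4%), and 5 were lower with no overlap (10.8% of all genes). The median log2 change was -0.20, against 0.04 over all genes. Col6a1 measured 253 ± 52.6 and 163 ± 33.0 CPM (adjusted p = 0.12), Col6a2 333 ± 64.3 and 221 ± 42.3 CPM, and Col3a1 2338 ± 427 and 1625 ± 269 CPM. These collagens were lower in each mutant than in any control. Hic1, a repressor found in such fibroblasts, measured 45.6 ± 13.6 and 24.1 ± 5.66 CPM (adjusted p = 0.106) and overlapped by a small margin. The other members that overlapped between groups changed little and in both directions, with log2 changes from -0.20 to 0.15.

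Osr2 was then set beside factors of the palatal mesenchyme. Of 20 measured, 0 passed over all genes in limma. At an unadjusted p below 0.05, 7 were lower (8.07% of all genes) and 2 higher (13.4%), and the median log2 change was -0.33, against 0.04 over all genes. Mn1, a regulator of posterior palate growth, measured 187, 207 and 160 CPM in controls and 115, 132 and 106 CPM in mutants (-0.65 ± 0.12, adjusted p = 0.0572). Tbx2 (42.4 and 28.9 CPM), Barx1 (120.9 and 84.0 CPM) and Foxf2 (46.6 and 24.8 CPM) had lower means, of which Barx1 overlapped. The log2 changes of these 4 lay between -0.84 and -0.53, beside -1.47 for Osr2, and the difference was not tested. The 2 higher members were the homeobox genes Alx1 (5.35 and 13.0 CPM, adjusted p = 0.185) and Alx4 (23.0 and 31.4 CPM, adjusted p = 0.2), of which Alx1 overlapped; Alx4 is named after its values were seen.

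The 4 markers of the posterior palate were all detected, and so were 3 of the anterior palate. Summed, the posterior markers measured 344 to 431 CPM in controls and 210 to 293 CPM in mutants, without overlap, while the anterior ones measured 74.4 to 92.0 and 58.2 to 102 CPM. The posterior sum weighs Mn1 and Barx1 most, which had the highest levels. Of the 4 posterior markers 0 passed in limma, and all but Mn1 overlapped between groups. Meox2 measured 44.4, 87.4 and 53.3 CPM in controls and 18.1, 49.5 and 41.2 CPM in mutants (limma adjusted p = 0.239). Tbx22 measured 7.68, 32.8 and 8.95 CPM and 2.77, 6.69 and 10.7 CPM (limma adjusted p = 0.311). Within the controls, replicate 2 was the highest and replicate 1 the lowest for Osr2, Meox2 and Tbx22 alike. Within the mutants replicate 5 was the lowest for all 3, while the highest was replicate 6 for Osr2 and Meox2 but replicate 7 for Tbx22. The other posterior markers had another order. Barx1 measured 138, 103 and 121 CPM in controls, highest in replicate 1 and lowest in replicate 2, and Mn1 was lowest in control replicate 3 and in mutant replicate 7. The anterior markers differed in direction. Shox2 measured 70.8, 61.9 and 66.3 CPM in controls and 66.6, 65.6 and 33.8 CPM in mutants (log2 change -0.32, adjusted p = 0.461). Alx1 measured 8.48, 5.79 and 1.79 CPM and 13.2, 6.92 and 19.0 CPM (1.21 ± 0.47, adjusted p = 0.185), and the change of Msx1, given above, was 0.27 (adjusted p = 0.815). All 3 overlapped between groups. How far the place of dissection entered the change of Osr2 was not tested.

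**Figure D5:**
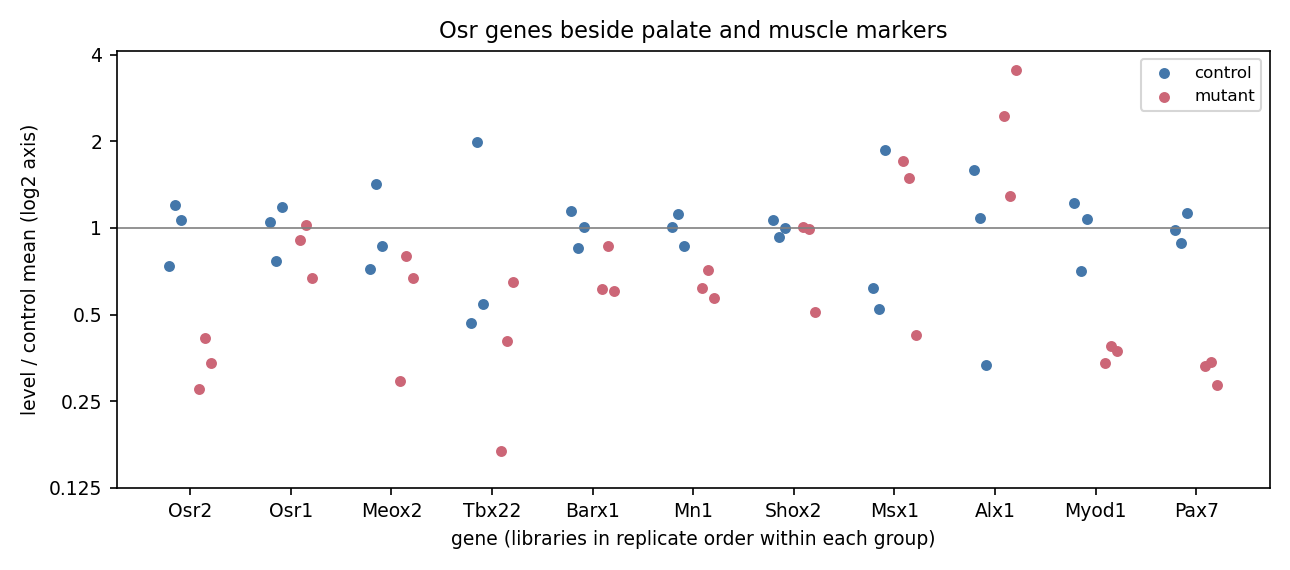
Level of each gene divided by its mean over the controls, on a log2 axis, for Osr2, Osr1, the posterior palate markers Meox2, Tbx22, Barx1 and Mn1, the anterior markers Shox2, Msx1 and Alx1 and the muscle genes Myod1 and Pax7; points are libraries in replicate order. The mutant points of Osr2 lie as low as those of Myod1 and Pax7, and those of Osr1 overlap with the controls.

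Markers of other cell types differed between the libraries as well. All 9 skeletal muscle markers had lower means in the mutant, 5 of them past the threshold in limma, where 0.283% of all genes were called lower. The sum of these markers was 1870 to 4200 CPM in controls and 1020 to 1500 CPM in mutants. Among them Myod1, which commits cells to muscle, went from 26.2 ± 6.93 down to 9.63 ± 0.67 CPM and Pax7, of muscle progenitors, from 13.3 ± 1.59 down to 4.25 ± 0.41 CPM (adjusted p = 0.0352 and 0.0271). The calls of the 4 muscle markers with the smallest p, Pax7, Myog, Myod1 and Des, were lost with no trend in the prior variance (adjusted p = 0.0702 to 0.0759), with sex from Xist as a term (0.0519 to 0.0622), and without each single library (0.0637 to 0.158) other than control replicate 2. Control replicate 2 had the lowest muscle sum of the controls and the highest Osr2. Within the mutants the muscle sum and Osr2 had the same order. Both were lowest in replicate 5 (1022 and 13.0 CPM) and highest in replicate 6 (1500 and 19.4 CPM). The sums of erythroid markers were 761 to 2150 CPM in controls and 361 to 627 CPM in mutants, and those of multiciliated cells 59.0 to 189 and 202 to 271 CPM. In each of these 2 lists 0 of 5 markers passed in limma. All 5 erythroid markers were lower with no overlap (10.8% of all genes). Of the multiciliated markers 4 were higher with no overlap (17.1%), and Foxj1 overlapped (limma adjusted p = 0.472). Sums for macrophages (27.0 to 33.2 and 21.7 to 27.2 CPM, overlapping by a small margin), epithelium (867 to 1500 and 1140 to 1730 CPM), endothelium (157 to 261 and 193 to 269 CPM), Schwann cells and neurons (121 to 183 and 52.3 to 210 CPM) and bone (2480 to 3590 and 2420 to 4230 CPM) overlapped. Most of the muscle sum was Myh3, which was not called (limma adjusted p = 0.0882), and most of the bone sum was Col1a1. The bone marker Ibsp measured 101 ± 114 and 364 ± 185 CPM and overlapped (limma adjusted p = 0.119). No marker of these lists was at 0 in all libraries, and the part of these cell types in the change of Osr2 was not tested. In all, 105 genes (0.479%) passed, 43 higher and 62 lower.

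Of the other genes annotated within 500 kb on either side of Osr2, 6 were measured. The nearest in the annotation, BC048602 and Gm33497, were not analysed here, and the 6 lay at least 65.1 kb away. None passed in limma, and 2 were higher at an unadjusted p below 0.05, where 13.4% of all genes were. Stk3, a Hippo pathway kinase that ends 117 kb before Osr2, measured 59.5 ± 7.40 and 62.7 ± 3.15 CPM (adjusted p = 0.701). Vps13b, a lipid transfer protein gene that starts 67.9 kb after it, measured 117 ± 6.68 and 144 ± 7.47 CPM (0.30 ± 0.09, adjusted p = 0.109), higher in each mutant than in any control. Kcns2, a potassium channel subunit, stood at 0.946 and 1.06 CPM. Of the 3 known only by a model identifier, 9130002K18Rik, inside the span of Vps13b, measured 1.54 ± 0.51 and 3.96 ± 0.30 CPM (adjusted p = 0.0692), and Gm48960 and Gm7968 lay at or below 1.44 CPM in each library. Around Osr1 only the pseudogene Gm7099 was measured within that distance (3.11 and 3.42 CPM, adjusted p = 0.775).

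Genes with a pattern most like each member were ranked by Pearson's r on log2(CPM + 1) over the 6 libraries, among 9985 other genes whose mean reached the table's median of 10.2 CPM. All libraries enter each r, so for Osr2 it follows mainly the split between groups. Nearest to Osr2 were Btf3 (r = 0.996), Lzts2 (0.996), Carm1 (0.995), Ehmt2 (0.994) and Mcrip1 (0.993), and farthest were Fcho2 (-0.998), Cc2d2a (-0.998), Braf (-0.996), R3hdm1 (-0.996) and Clock (-0.993). Their changes were far smaller than that of Osr2, with log2 changes from -0.41 to 0.40 and adjusted p from 0.0759 to 0.155 in limma. An absolute r above 0.9 with Osr2 was found for 7.7% of the genes, so such a value is common here. For Osr1 the share was 1.81%, with Tomm20 (0.981), Sowahc (0.978), Psma2 (0.977), Cops2 (0.976) and Fbh1 (0.975) nearest and Galk2 (-0.995), Tst (-0.995), Uvrag (-0.986), Cpt1a (-0.986) and Anks1 (-0.983) farthest. Between Osr1 and Osr2 themselves r was 0.31.

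The genes farthest from Osr2 in pattern have 6809 to 31486 exonic bases, while the nearest have 1282 to 5489. Exonic bases here are those of all annotated exons of a gene merged, which can exceed any single transcript. Over genes at or above the median level, the median log2 change was -0.13 for genes under 1 kb of exons, -0.13 at 1 to 2 kb, -0.08 at 2 to 4 kb, -0.03 at 4 to 6 kb and 0.06 above 6 kb. Osr2, with 3623 exonic bases, and Osr1, with 2066, both fall in the class from 2 to 4 kb. By its longest coding transcript, 1724 bases, Osr2 would fall in the class from 1 to 2 kb. These length classes were chosen after the data were seen.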

How the data were processed

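The submitters' processing notes name STAR and the build mm10, with no version; for counting, annotation and strand the sources used here give nothing. RNA integrity was above 9, per the series' design text. The deposited table holds CPM of 21938 genes with 0.0001 added by the authors, as found from the values, and that constant was removed. From the step between low values the libraries held 10018708 to 15089449 counted reads; 62.2 to 71.7% of values below 1 CPM were whole reads within 0.02, so whole reads were not recovered and no count model was fitted. A gene at 0 could lie at up to 0.199 to 0.299 CPM (3 reads), for counting error alone.

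Mutant and control were compared with limma 3.58.1 in R 4.3.3 on log2(CPM + 1), with an intensity trend, no filter and Benjamini-Hochberg adjustment over all genes (threshold 0.05); the test was tested on simulated data. Gene models came from GENCODE vM21 (GRCm38, which mm10 names); 97.4% of symbols matched 1 gene. The RefSeq promoter table held 0 entries for Osr1 and Osr2. Members and lists were chosen with earlier results of these data known. Named were the members, Ctnnb1, the 11 genes tied to Osr2, up to 4 genes with the smallest p of each other list, the 5 nearest and 5 farthest patterns of each member, and genes within 500 kb. Of the cell type markers, a few are named for illustration. Listed genes Wnt9b, Ly6a, Sp5 and Bglap were not analysed here, and 1 marker is not reported here.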

Additional observations from a re-analysis of the deposited data

How the results depend on the processing

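Osr2 kept its direction and its call with a pseudocount of 0.1, with genes of a mean of at least 1 CPM, with median scaling and with a robust prior variance. With no trend in the prior variance (log2 change -1.47, adjusted p = 0.0702) and with sex from Xist as a term (-1.47, adjusted p = 0.057) it missed the threshold. Xist was high only in control replicate 3 and mutant replicate 7. Sex was thus balanced between the groups, and the term left the change of Osr2 at -1.47. Without single libraries it ranged from -1.68 to -1.33, the log2 ratio of Osr2 to Osr1 from -1.58 to -1 and Osr1 from -0.37 to -0.03. The number of genes called, 105, was 0 with no trend or with sex as a term, 174 with a robust prior variance, 999 at an adjusted p below 0.1, and 0 to 452 without single libraries. Of the genes named, 10 turned in sign without single libraries, none of them called, over these ranges of log2 change: Msx1 -0.07 to 0.85, Pax9 -0.15 to 0.14, Prg4 -0.82 to 0.01, Gdf5 -0.54 to 0.00, Sowahc -0.23 to 0.01, Galk2 0.00 to 0.16, Tst 0.00 to 0.70, Kcns2 0.00 to 0.21, Stk3 0.00 to 0.17, Gm7968 -0.07 to 0.18. No paired analysis was possible because the groups share no replicate number. With 3 libraries a group, changes like that of Osr1 could not be told from 0.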
